A study of Mus musculus with 6 samples.

Results

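Collagens are the proteins that give the connective tissue of muscle its strength, and 44 of the 27179 genes listed for mouse quadriceps muscle encode a collagen chain. They were taken as every gene whose whole symbol reads Col, a type number, a and a chain number, with pseudogenes left out, which also left out Col4a3bp, the gene of a ceramide transfer protein. The 44 genes comprise 11 fibrillar collagens, 6 basement membrane collagens of type IV, 6 chains of type VI and 21 other collagens. Of these, 42 had enough reads for testing among 16483 genes tested, and Col9a2 and Col26a1 did not.

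Quadriceps muscle RNA was sequenced for 2 groups, both on normal chow. The 3 control libraries (genotype Control f/f) carry the replicate letters B, C and D, and the 3 miDrp1KO libraries carry A, E and F. The miDrp1KO mice carry floxed alleles of Dnm1l, which encodes the mitochondrial fission protein DRP1, and a tamoxifen-inducible MerCreMer recombinase under the human skeletal actin promoter, and the control mice carry floxed alleles without the Cre. The mice were male, all of them received tamoxifen at 3 months of age, and muscle was taken 3 weeks post–Dnm1l deletion. The skeletal actin promoter is active in muscle fibres, so the deletion is directed at the fibres and not at the fibroblasts, tendon cells, vessel cells and nerve sheath cells that share the tissue block. Because whole muscle was measured, more cells of a type and more RNA per cell cannot be told apart.

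Each collagen molecule is a helix of 3 chains, made as a procollagen in the endoplasmic reticulum, where prolines and lysines are hydroxylated before the chains fold. Fibrillar collagens (types I, III and V in muscle) are trimmed outside the cell and cross-linked into the fibrils of the endomysium, perimysium and epimysium. Type IV forms the sheet-like network of the basement membrane around each muscle fibre and capillary, and type VI forms beaded filaments that link the basement membrane to the fibrils. Fibroblasts make most of the fibrillar and type VI collagen of muscle, while tendon cells make very large amounts of type I. Type VI chains are known for inherited muscular dystrophies, and excess fibrillar collagen is the hallmark of muscle fibrosis.

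Levels are given as CPM, the reads on a gene relative to a library size scaled by the trimmed mean of M-values (TMM), in the order B, C and D for control and A, E and F for miDrp1KO. Dnm1l itself was at 156, 114 and 140 CPM in control and at 70.6, 81.3 and 66.2 CPM in miDrp1KO muscle, so all 3 miDrp1KO libraries were below all 3 control libraries (log2 fold change -0.91, SE 0.18), although its adjusted p in edgeR's quasi-likelihood test was 0.362. Libraries held 13989588 to 62042255 counts in control and 20028624 to 28829756 in miDrp1KO muscle. Ribosomal RNA genes took 15.6, 7.95 and 3.36% of the control counts and 23.0, 1.48 and 24.4% of the miDrp1KO counts, so miDrp1KO replicate E held the least ribosomal RNA. Each group consisted of 3 mice, so p-values measure the spread between the mice together with that of the measurement.

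No collagen gene passed the test between miDrp1KO and control muscle. By edgeR, 0 of the 42 collagens tested had an adjusted p under 0.05, against 2 of all 16483 genes tested (0.0121%), and 0 were called by limma voom. DESeq2 called 0 of the 13 collagens to which it gave an adjusted p and 121 of the 2860 genes to which it gave one. At an unadjusted p under 0.05, 1 collagen was higher (Col2a1) and 1 was lower (Col19a1) of the 42, against 4.68% of all genes tested for higher and 6.22% for lower. The groups did not overlap for 2 collagens that were higher in miDrp1KO muscle (Col2a1 and Col25a1, against 7.67% of all genes tested) and for 0 that were lower (against 10.3%). The log2 fold change was above 0 for 33 of the 42 collagens, against 52% of all genes tested, and its median over the collagens was 0.26, against 0.02 over all genes tested. These counts hold library E, in which 28 of the 42 collagens had their highest level.

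Promoter sequences are shown for the most abundant collagen (Col3a1), for a collagen whose groups did not overlap (Col25a1) and for the collagen that was lower at an unadjusted p under 0.05 (Col19a1). They are the bases before the RefSeq transcription start on GRCm38.p6, written 5′ to 3′ on the gene's strand, without bases that lie in an annotated exon, and capitals mark the TATA box motif TATAAA, the NF-Y motif CCAAT and the Sp1 motif GGGCGG on either strand, with overlapping matches counted separately.
Col3a1 (chr1:45311288-45311537, plus strand): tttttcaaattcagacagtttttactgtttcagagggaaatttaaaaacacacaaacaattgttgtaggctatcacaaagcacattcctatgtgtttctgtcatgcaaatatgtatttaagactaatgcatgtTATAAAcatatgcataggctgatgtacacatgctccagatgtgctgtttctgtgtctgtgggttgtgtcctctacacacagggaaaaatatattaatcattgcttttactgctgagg
Col25a1 (chr3:130180595-130180844, plus strand): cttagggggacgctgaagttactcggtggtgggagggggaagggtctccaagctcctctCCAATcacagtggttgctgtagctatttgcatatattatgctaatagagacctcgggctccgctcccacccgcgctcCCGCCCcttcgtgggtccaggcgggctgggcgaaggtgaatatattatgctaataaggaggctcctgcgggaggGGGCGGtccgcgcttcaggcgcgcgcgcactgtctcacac
Col19a1 (chr1:24587473-24587687, minus strand): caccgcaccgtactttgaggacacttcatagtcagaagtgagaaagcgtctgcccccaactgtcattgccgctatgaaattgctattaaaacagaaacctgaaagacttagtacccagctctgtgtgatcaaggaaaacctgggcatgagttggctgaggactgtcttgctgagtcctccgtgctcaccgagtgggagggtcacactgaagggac
The Col3a1 window holds 1 TATAAA, the Col25a1 window holds 1 CCAAT and 2 GGGCGG, and the Col19a1 window holds 0 of the 3 motifs. The GENCODE model of Col25a1 runs from position 130131501 to 130599877 on the plus strand, so the Col25a1 window lies inside that model. The Col3a1 and Col19a1 windows lie directly before the start of theirs. Full windows of 250 bases, here with any exon bases kept, were on hand for 35 of the 44 collagens. CCAAT was in 34.3% of these full windows and in 34.5% of the 27025 windows of all genes, TATAAA was in 14.3% against 13%, and GGGCGG was in 60% against 32.9%, as a description of the letters only.

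Fibrillar collagens were the most abundant class, and Col2a1, a gene of few reads, was the only member whose groups did not overlap. All 11 had a log2 fold change above 0, with a range of 0.20 to 1.04 and a median of 0.41, and 0 of the 11 had an adjusted p under 0.05. Without replicate E, 8 of the 11 were above 0 and the median was 0.16. Summed over the class, fibrillar collagens reached 614, 749 and 709 CPM in control and 544, 1420 and 830 CPM in miDrp1KO muscle, so replicate A was the lowest and replicate E the highest of the 6 libraries.

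Col3a1, the single chain of type III collagen and the most abundant collagen per kilobase, was at 283, 393 and 330 CPM in control and 270, 559 and 328 CPM in miDrp1KO muscle. The groups overlapped, with replicate E above and replicate A below every control library (log2 fold change 0.20, SE 0.27, edgeR adjusted p = 0.821). The log2 fold change of Col3a1 was -0.16 without replicate E and 0.43 without replicate A. Type I collagen, the main fibril of tendon and perimysium, is built from 2 chains of Col1a1 and 1 of Col1a2. Col1a1 was at 57.9, 50.6 and 67.3 CPM in control and 31.2, 222 and 104 CPM in miDrp1KO muscle. Replicates E and F were above every control library and replicate A was below every control library, which makes the highest library 7.12 times the lowest. The log2 fold change of 1.02 (SE 0.71) had a 95% interval from -0.81 to 2.86 and an edgeR adjusted p of 0.655. Leaving out replicate E gave a log2 fold change of 0.21, and leaving out replicate A gave 1.496 with an edgeR adjusted p of 0.0701. Col1a2 followed the same course, at 117, 150 and 154 CPM in control and 96.4, 351 and 215 CPM in miDrp1KO muscle (log2 fold change 0.66, SE 0.43, edgeR adjusted p = 0.609). Its log2 fold change was 0.16 without replicate E and 1.04 without replicate A (edgeR adjusted p = 0.0798).

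Type V collagen sits in the core of type I fibrils and limits their width. Its chain Col5a2 was at 51.4, 54.7 and 55.1 CPM in control and 44.4, 92.4 and 61.4 CPM in miDrp1KO muscle. Col5a1 was at 39.8, 45.5 and 42.3 CPM in control and 42.3, 77.04 and 43.7 CPM in miDrp1KO muscle, and Col5a3 at 35.8, 40.7 and 31.3 against 36.1, 63.1 and 40.4 CPM. Replicate E was above every control library for all 3 chains, and replicate F was so only for Col5a2, whose replicate A was below every control library. Their log2 fold changes were 0.30 (SE 0.24), 0.36 (SE 0.23) and 0.38 (SE 0.22), with intervals that reach up to 0.82, 0.86 and 0.85. Without replicate E they were -0.019, 0.017 and 0.095.

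The remaining fibrillar chains are best known from cartilage and bone and were low. Col11a1, a chain that joins type II fibrils in cartilage and type I fibrils in tendon, was at 7.01, 1.53 and 7.33 CPM in control and 2.09, 19.5 and 8.30 CPM in miDrp1KO muscle, a 12.8-fold span over the 6 libraries. Its partner Col11a2 was at 4.73, 3.35 and 4.93 CPM in control and 3.65, 15.0 and 8.25 CPM in miDrp1KO muscle, with a log2 fold change of 1.04 (SE 0.48, edgeR adjusted p = 0.489), or 0.44 without replicate E. For both, replicates E and F were above every control library while replicate A lay within the control range. Col2a1, the chain of cartilage type II collagen, was at 0.66, 0.44 and 0.50 CPM in control and 0.92, 1.23 and 1.10 CPM in miDrp1KO muscle, on 6 to 50 reads per library. All 3 miDrp1KO libraries were above all 3 control libraries (log2 fold change 1.02, SE 0.42, edgeR p = 0.0337, adjusted p = 0.424), and the exact permutation test over the 6 libraries gave p = 0.1, the smallest that 3 against 3 allow. Col24a1, a chain found in bone, was at 13.4, 5.47 and 12.9 CPM in control and 11.8, 16.7 and 14.2 CPM in miDrp1KO muscle, where the groups overlapped.

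**Figure D1:**
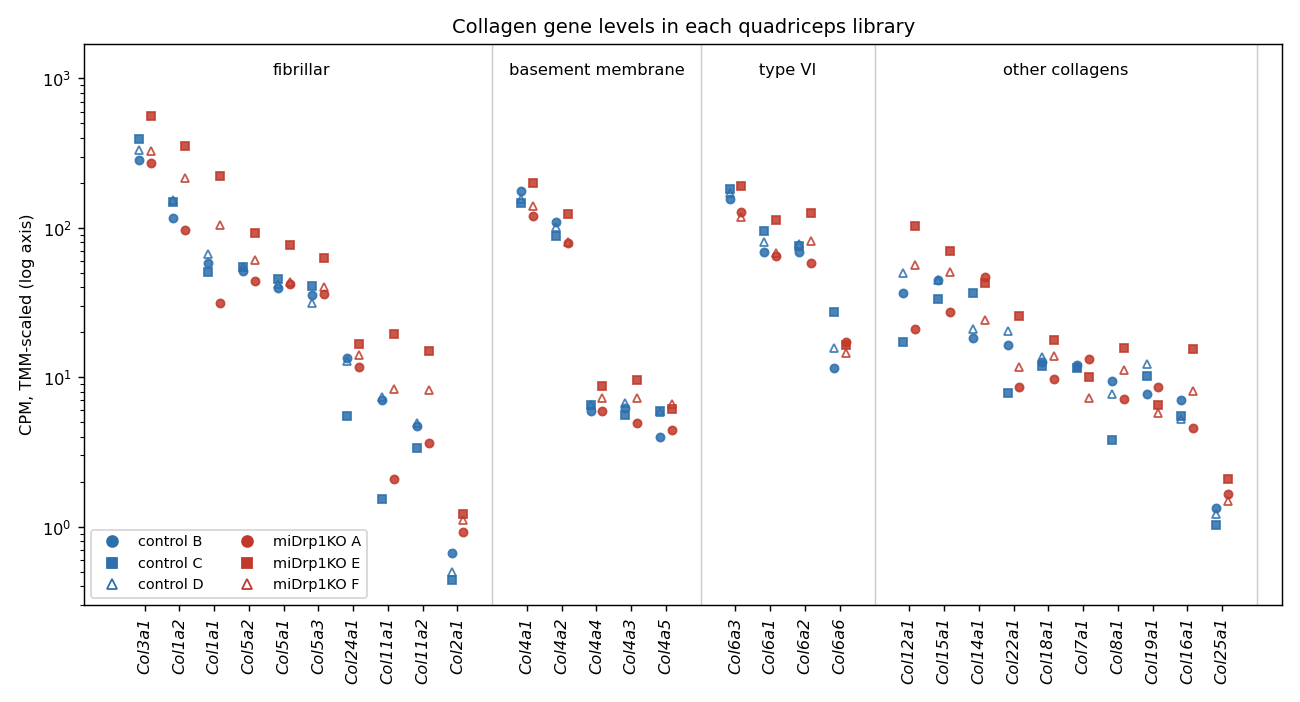
Level of each named collagen in each library, as TMM-scaled CPM on a log axis, with control libraries in blue and miDrp1KO libraries in red and each symbol standing for 1 library. Replicate E is the highest library for most fibrillar chains while replicate A is often the lowest, and the groups are apart only for Col2a1 and Col25a1.

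Fibril-associated collagens coat the surface of fibrils. Col12a1, which is common in tendon and perimysium, was at 36.8, 17.3 and 49.8 CPM in control and 21.1, 103 and 56.5 CPM in miDrp1KO muscle (log2 fold change 0.79, SE 0.70, and 0.16 without replicate E, 0.45 without control replicate C or 1.22 without replicate A). Col14a1, its relative in the perimysium, was at 18.4, 36.6 and 21.1 CPM in control and 46.6, 43.0 and 24.0 CPM in miDrp1KO muscle (log2 fold change 0.58, SE 0.33, edgeR adjusted p = 0.559, and 0.92 without control replicate C). Col14a1 did not follow the course of Col12a1, since replicate A was its highest library and among the lowest for Col12a1, and both genes overlapped between the groups. Col16a1 was at 7.01, 5.47 and 5.30 CPM in control and 4.57, 15.5 and 8.06 CPM in miDrp1KO muscle, and its log2 fold change of 0.68 (SE 0.41) was 0.099 without replicate E and 1.03 without replicate A. Col22a1, a collagen of the myotendinous junction, was at 16.5, 7.87 and 20.3 CPM in control and 8.65, 25.5 and 11.7 CPM in miDrp1KO muscle, so its control libraries already spanned much of the range seen in miDrp1KO muscle (log2 fold change 0.04, SE 0.53).

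Col19a1, a fibril-associated collagen found in differentiating muscle cells and in some neurons, was the only collagen that was lower in miDrp1KO muscle at an unadjusted p under 0.05. It was at 7.77, 10.2 and 12.2 CPM in control and 8.603, 6.50 and 5.81 CPM in miDrp1KO muscle. Replicates E and F were below every control library and replicate A was above control replicate B. The log2 fold change of -0.54 (SE 0.23, interval -1.03 to -0.04) had an edgeR p of 0.0361 and an adjusted p of 0.431, and the exact permutation test gave p = 0.2. Without control replicate D the log2 fold change was -0.34 (edgeR adjusted p = 0.896). By edgeR, the unadjusted p of Col19a1 was above 0.05 with upper quartile scaling (0.0621) and with the ribosomal share as a covariate (0.107). It was also above 0.05 without control replicate C (0.0532) or D (0.210) and without miDrp1KO replicate E (0.0929) or F (0.129). In the other alternatives it was under 0.05. Over the 8 fibril-associated collagens tested, 6 were above 0 and 2 below, with a median of 0.40.

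Basement membrane collagens lay close to 0. Of the 6 type IV chains, 3 had a log2 fold change above 0 and 3 below, with a median of 0.03 and a range of -0.47 to 0.22, and 0 of the 6 had an unadjusted p under 0.05. The median was -0.16 without replicate E and 0.21 without replicate A. Col4a1 and Col4a2, which together build the type IV molecule found around all muscle fibres and capillaries, lie head to head on chromosome 8 with 22 bases of exon in common on opposite strands. Col4a1 was at 176, 146 and 156 CPM in control and 119, 198 and 141 CPM in miDrp1KO muscle. Col4a2 was at 110, 88.5 and 101 CPM in control and 78.6, 123 and 80.0 CPM in miDrp1KO muscle. In both, replicate E was above and replicates A and F were below every control library, and the intervals of the log2 fold change ran from -0.53 to 0.41 and from -0.54 to 0.37. The minor chains Col4a3, Col4a4 and Col4a5, known from kidney and lung membranes, were at 3.98 to 6.75 CPM in the control libraries and at 4.42 to 9.54 CPM in the miDrp1KO libraries, with overlap for each of the 3.

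Type VI collagen also lay close to 0, with 4 of 6 chains above 0, 2 below and a median of 0.05, which was -0.15 without replicate E and 0.21 without replicate A. Its main molecule joins Col6a1, Col6a2 and Col6a3. Col6a1 was at 68.6, 94.7 and 80.7 CPM in control and 65.2, 113 and 68.2 CPM in miDrp1KO muscle. Col6a2 was at 69.0, 75.9 and 77.9 CPM in control and 58.0, 125 and 82.2 CPM in miDrp1KO muscle. Col6a3, the longest of the 3 chains, was at 157, 183 and 172 CPM in control and 128, 191 and 117 CPM in miDrp1KO muscle. Replicate E was again the highest library for each of the 3, and replicates A and F were below all control libraries only for Col6a3 and for Col6a1. The log2 fold changes were 0.02 (SE 0.23), 0.25 (SE 0.25) and -0.23 (SE 0.21), with intervals of -0.49 to 0.52, -0.30 to 0.80 and -0.70 to 0.24. Without replicate E they were -0.28, -0.080 and -0.48, and without replicate F the value for Col6a3 was -0.075. Col6a6, an alternative chain that can stand in for Col6a3, was at 11.6, 27.5 and 15.6 CPM in control and 17.2, 16.4 and 14.5 CPM in miDrp1KO muscle. Control replicate C was the highest library there, and all 3 miDrp1KO libraries lay inside the control range.

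Of the 21 other collagens, 19 were tested, 15 had a log2 fold change above 0 and 4 below, and the median was 0.35. This median was 0.14 without control replicate C, 0.22 without replicate E, 0.56 without control replicate D and 0.58 without replicate A. Col15a1, a multiplexin that ties the muscle basement membrane to nearby fibrils, was at 44.7, 33.4 and 44.7 CPM in control and 27.4, 69.8 and 50.8 CPM in miDrp1KO muscle. Col18a1, its relative and the source of endostatin, was at 12.6, 12.0 and 13.6 CPM in control and 9.67, 17.8 and 13.8 CPM in miDrp1KO muscle. For both multiplexins, replicate A was below and replicates E and F above all control libraries. Col8a1, a network collagen of vessel walls, was at 9.47, 3.79 and 7.68 CPM in control and 7.14, 15.7 and 11.2 CPM in miDrp1KO muscle (log2 fold change 0.69, SE 0.38, and 0.40 without control replicate C or 0.38 without replicate E), and its partner Col8a2 had a log2 fold change of 0.91 (SE 0.43, edgeR adjusted p = 0.481). Col7a1, which builds anchoring fibrils, was at 12.1, 11.6 and 11.7 CPM in control and 13.2, 10.001 and 7.29 CPM in miDrp1KO muscle and thus had its highest and its lowest levels among the miDrp1KO libraries.

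Col25a1, a membrane collagen that muscle fibres need for their innervation during development, was the other collagen whose groups did not overlap. It was at 1.33, 1.02 and 1.22 CPM in control and 1.65, 2.08 and 1.49 CPM in miDrp1KO muscle, so the lowest miDrp1KO library was just above the highest control library. On 14 to 85 reads per library, the log2 fold change was 0.55 (SE 0.33, interval -0.16 to 1.26, edgeR adjusted p = 0.567), and the exact permutation test gave p = 0.1. The 4 membrane collagens (Col13a1, Col17a1, Col23a1 and Col25a1) all had a log2 fold change above 0, between 0.35 and 0.55, on levels of at most 4.19 CPM in any library.

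**Figure D2:**
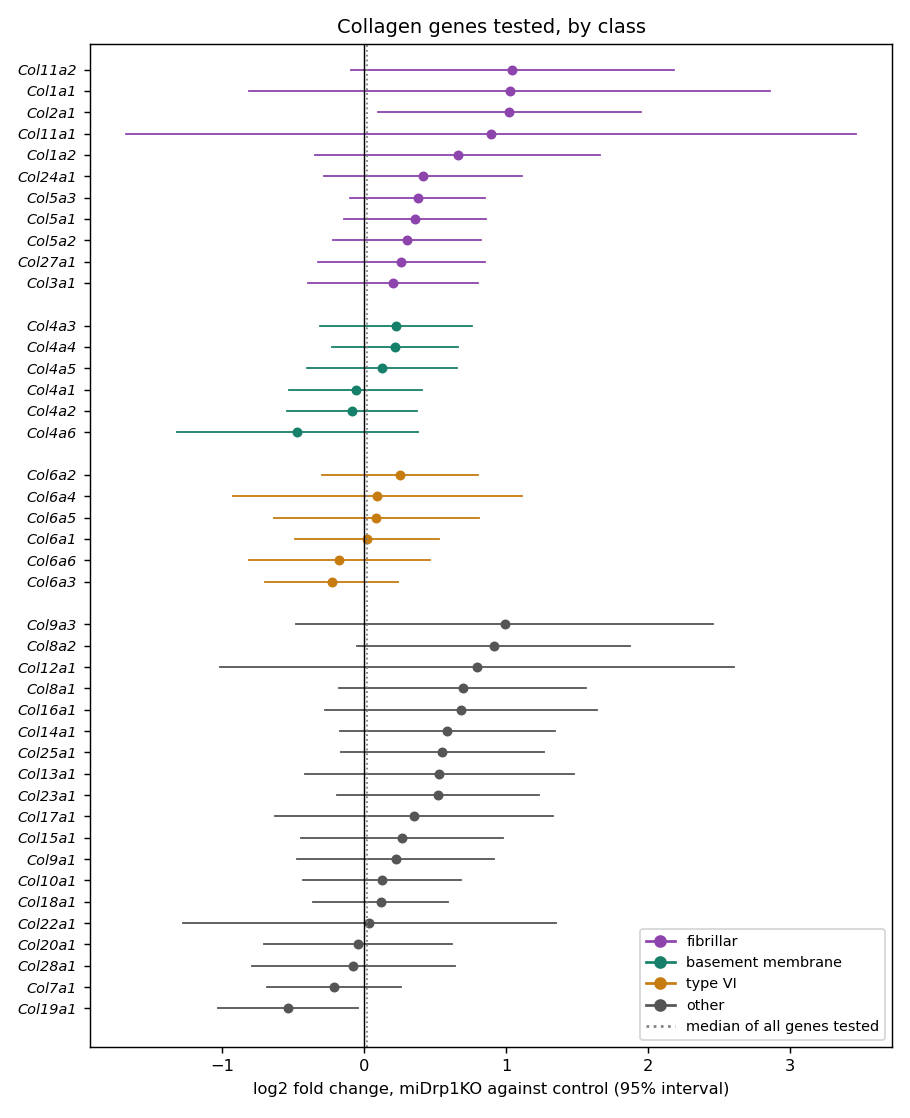
Log2 fold change of each of the 42 collagens tested, miDrp1KO against control, with points for the edgeR estimate and lines for the 95% interval, by class. All 11 fibrillar points lie above 0, type IV and type VI points lie on both sides of 0, and only the intervals of Col2a1 and Col19a1 leave out 0.

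Per kilobase of exon, the order of the most abundant chains in control muscle was Col3a1 (60.2 ± 9.91 CPM per kilobase, SD, n = 3), Col1a2 (26.2 ± 3.80), Col4a1 (24.1 ± 2.27), Col6a1 (19.8 ± 3.19), Col6a3 (15.7 ± 1.22), Col4a2 (15.5 ± 1.67), Col6a2 (12.4 ± 0.775) and Col1a1 (9.88 ± 1.41). Neighbours in this order from Col1a2 to Col4a2 differed by less than the sum of their SDs. Col3a1 and Col1a2, Col4a2 and Col6a2, and Col6a2 and Col1a1 differed by more. In miDrp1KO muscle the levels of Col3a1, Col1a2 and Col1a1 were 69.3, 41.3 and 20.1 CPM per kilobase, and the SD of Col1a2 was 23.8.

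Ratios between chains, within a molecule or between types I and III, were taken within each library, so they do not depend on library size. The ratio of Col4a2 to Col4a1 per kilobase was nearly constant, at 0.641, 0.620 and 0.665 in control and 0.676, 0.637 and 0.582 in miDrp1KO muscle. The ratio of Col3a1 to Col1a1 varied most, at 5.21, 8.27 and 5.23 in control and 9.22, 2.68 and 3.37 in miDrp1KO muscle, and it was highest in the library with the least Col1a1. The ratio of Col6a3 to Col6a1 was 0.864, 0.731 and 0.807 in control and 0.740, 0.640 and 0.650 in miDrp1KO muscle, where replicates E and F were below all control libraries and replicate A was not. Its log2 difference was -0.24 (two-sided exact permutation p = 0.2), and the smallest p that 3 against 3 libraries allow is 0.1. Over the 6 chain ratios compared, exact permutation p-values ran from 0.2 to 0.8 and were 0.8 after Benjamini-Hochberg adjustment, and every ratio overlapped between the groups.

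The collagens as a whole took 0.119, 0.151 and 0.149% of the counts in control and 0.101, 0.361 and 0.164% in miDrp1KO muscle. Relative to totals that hold neither Lars2 nor ribosomal RNA, the shares were 0.146, 0.168 and 0.156% in control and 0.139, 0.368 and 0.234% in miDrp1KO muscle. On both scales replicate E had the largest share, replicate F was above and replicate A below every control library. Within the collagen counts, fibrillar genes made up 43.4, 48.6 and 45.9% in control and 45.6, 55.6 and 52.7% in miDrp1KO muscle, and type VI genes 21.9, 25.0 and 22.6% against 22.7, 17.6 and 18.2%. In replicates E and F the fibrillar share was above, and the type VI share below, every control library, while replicate A lay inside the control range for both.

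**Figure D3:**
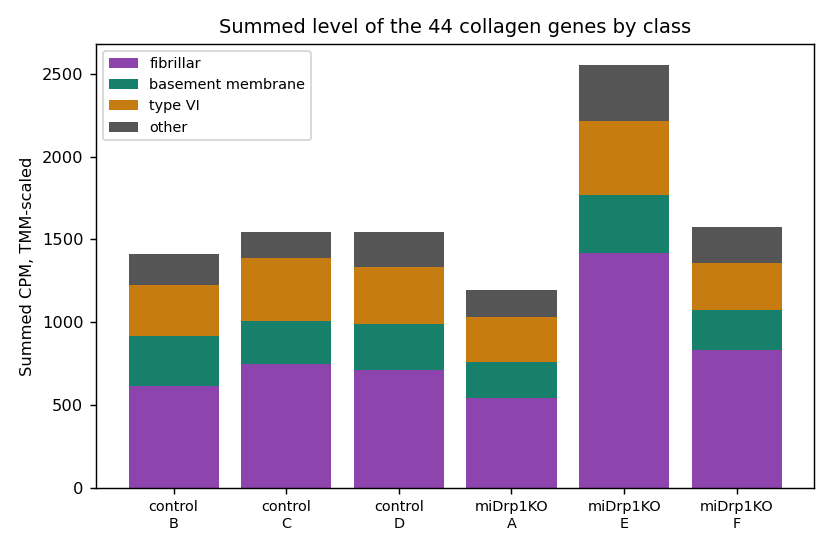
Summed level of the 44 collagens in each library, as TMM-scaled CPM, with the 4 classes stacked. Replicate E reaches 2552 CPM, replicate A 1194 CPM, and the other 4 libraries lie between 1413 and 1574 CPM.

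The libraries' order was looked at after the values had been seen. Replicate E was the highest library for 28 of the 42 collagens tested (66.7%, against 17.4% of all genes tested), and replicate A was the lowest for 17 (40.5%, against 12.5%). Replicate E was highest for 10 of the 11 fibrillar chains, the exception being Col27a1, and replicate A was lowest for 5 of the 6 basement membrane chains. The exact order of the libraries for Col1a1 (E, F, D, B, C, A) recurred in Col4a3, Col8a2 and Col18a1 among the collagens, which with Col1a1 is 4 of 42 (9.52%), and in 68 of all genes tested (0.413%). Genes are not independent replicates, and these shares describe the 6 libraries.

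Replicate E was also the highest library for all 6 tenocyte markers (Tnmd, Scx, Mkx, Thbs4, Fmod and Kera), and replicate A was the lowest for 3 of them. All 6 had a log2 fold change above 0, and their summed level was 197, 147 and 287 CPM in control and 134, 543 and 301 CPM in miDrp1KO muscle. In replicates A and F, Tnmd was at 5.44 and 7.15 CPM, below its control mean of 8.59 CPM. Kera was at 20.3 and 25.7 CPM there, below its control mean of 29.3 CPM. Of these 2 replicates, Thbs4 and Fmod were below their control means in replicate A only, and Scx and Mkx were above theirs in both. Among the control libraries the tenocyte sum ran D, B, C from high to low, as did Col1a1, Col11a1, Col11a2 and Col12a1. Some chains did not, since Col1a2 and Col5a2 ran D, C, B, and Col5a1, Col5a3 and Col14a1 were highest in replicate C of these libraries. The fibrillar sum, of which Col3a1 is the largest part, was also highest in replicate C. Tnmd and Kera had log2 fold changes of 0.17 (SE 0.40) and 0.15 (SE 0.51), and Thbs4, a tendon matrix protein, had 0.61 (SE 0.48). Fmod, a proteoglycan of collagen fibrils, was at 42.1, 32.8 and 82.3 CPM in control and 27.5, 183 and 89.9 CPM in miDrp1KO muscle, and it shared the exact library order of Col1a1, as did Thbs4. The tendon transcription factors Scx and Mkx had log2 fold changes of 0.56 (SE 0.23, edgeR adjusted p = 0.422) and 0.95 (SE 0.38, edgeR adjusted p = 0.416). Comp, a matrix protein of cartilage and tendon, was at 6.63, 4.15 and 14.7 CPM in control and 4.23, 28.6 and 21.3 CPM in miDrp1KO muscle, while the cartilage markers Cnmd and Ucma were at or near 0 in all libraries, with a maximum of 0.417 CPM. The other 4 cartilage markers were above 0 in log2 fold change, among them Sox9 at 0.17 (SE 0.31). Acan, the main proteoglycan of cartilage, was at 0.57, 0.073 and 0.50 CPM in control and 0.875, 0.907 and 0.960 CPM in miDrp1KO muscle, without overlap (log2 fold change 1.14, SE 0.56, edgeR adjusted p = 0.487), at levels like those of Col2a1. Its mean of 0.65 CPM was under the 1 CPM asked of other named genes, and 7.67% of all genes tested were likewise higher without overlap. Matn3 of the same list overlapped between the groups, with a log2 fold change of 0.46 (SE 0.72). The part of tendon or cartilage tissue in the collagen values was not tested.

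Of 10 fibroblast markers, 8 had a log2 fold change above 0, with a median of 0.25. Replicate E was the highest library for 4 of the 10 (40%, against 17.4% of all genes tested) and replicate A was the lowest for 0. Their summed level was 1711 to 2979 CPM in the control libraries and 2200 to 2530 CPM in the miDrp1KO libraries, all inside the control range. Cd34, a surface marker shared with vessel cells, was at 82.1, 94.96 and 91.96 CPM in control and 111, 114 and 101 CPM in miDrp1KO muscle, without overlap (log2 fold change 0.28, SE 0.16, edgeR adjusted p = 0.555). Ly6a and Mfap5 overlapped, with log2 fold changes of 0.25 (SE 0.17) and 0.35 (SE 0.21), and Mfap5 was at 12.6 CPM in replicate A and 16.3 CPM in replicate E. The part of fibroblasts in the collagen values was not tested.

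Myofibre markers were abundant, as the muscle label says, with 2 of 7 above 0 and 5 below. Their summed level was 97388 to 106335 CPM in control and 45305 to 72234 CPM in miDrp1KO muscle, lowest in replicate E, and it included Myh4, a fast myosin at 57018 ± 6602 CPM in control and 23265 ± 15013 CPM in miDrp1KO muscle (SD, n = 3). Myh4, Acta1 and Myh2 had log2 fold changes of -1.29, -0.56 and -0.74, and the members above 0, Myh7 and Mb of slow and oxidative fibres, had 1.26 (SE 1.82) and 0.67 (SE 0.74). Adipocyte markers were below 0 for 5 of 5, with sums of 301 to 421 CPM against 226 to 275 CPM, and Adipoq, Plin1 and Fabp4 had log2 fold changes of -1.28, -1.17 and -0.40. Macrophage markers were above 0 for 4 of 6, with C1qa at 14.3, 23.5 and 14.4 CPM in control and 26.2, 28.5 and 26.2 CPM in miDrp1KO muscle and log2 fold changes of 0.64, 1.24 and 0.59 for C1qa, C1qb and Cd68, while Csf1r, Mrc1 and Adgre1 had 0.16, -0.013 and -0.054.

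The sums of the endothelial, smooth muscle and pericyte, blood and satellite cell lists overlapped between the groups. Endothelial markers were below 0 for 5 of 6 (Pecam1 -0.35, Emcn -0.28 and, above 0, Tek 0.13 on the log2 fold change scale). Smooth muscle and pericyte markers were above 0 for 3 of 5 (Rgs5 0.31, Cspg4 0.34 and Myh11 -0.49). Blood markers were above 0 for 3 of 4 (Hba-a1 0.14, Hba-a2 0.32 and Alas2 -0.083) and satellite cell markers for 2 of 3 (Pax7 0.68, Myf5 0.43 and Calcr -0.21). The myelin genes Pmp22 and Mbp had log2 fold changes of 0.38 (SE 0.19) and 0.59 (SE 0.31), and both were higher in replicates E and F than in every control library. Of other nerve sheath genes, Sox10 had -0.11 (SE 0.42), and Prx, at 0.42 (SE 0.58), was highest in control replicate B. Against 17.4% of all genes tested, replicate E was the highest library for 3 of 4 cartilage, 3 of 5 smooth muscle and pericyte and 2 of 3 satellite cell markers, and for 1 of 6 endothelial, 1 of 6 macrophage, 1 of 7 myofibre, 0 of 5 adipocyte and 0 of 4 blood markers. None of the marker genes of the lists given here had an adjusted p under 0.05 by edgeR, and their part in the collagen values was not tested.

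**Figure D4:**
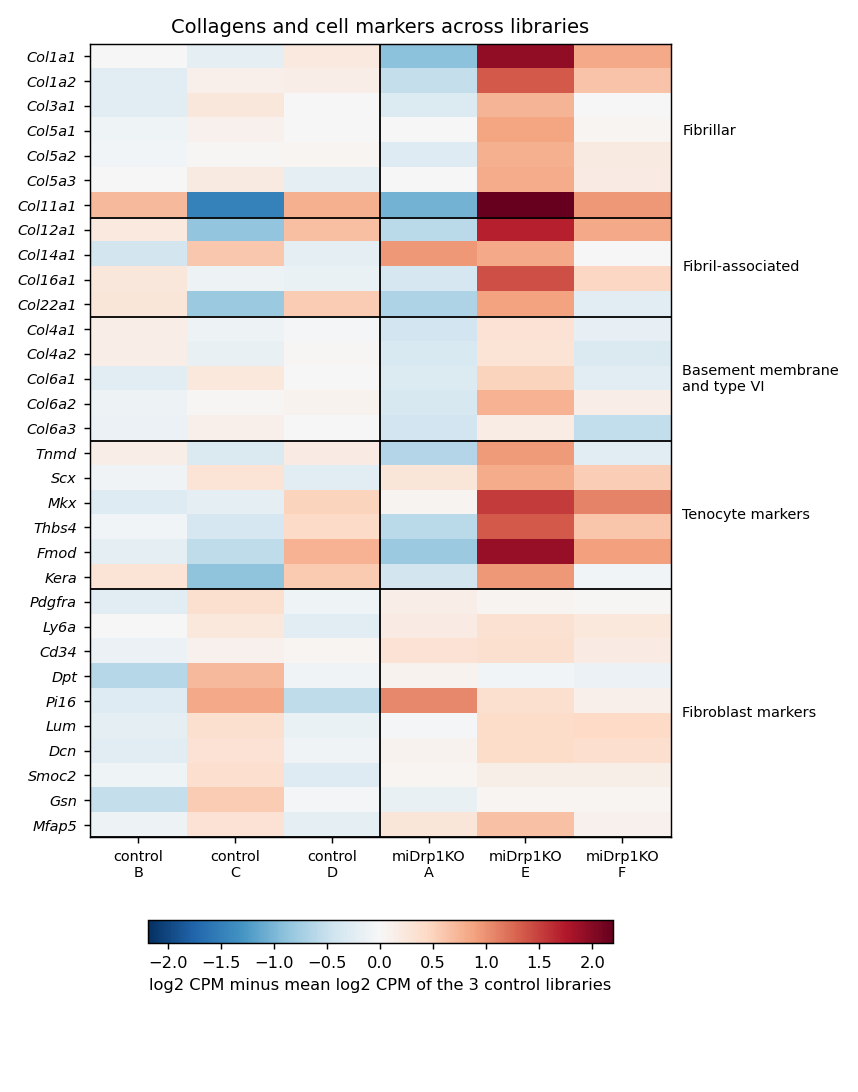
Log2 CPM of collagen chains, tenocyte markers and fibroblast markers in each library, relative to the mean log2 CPM of the 3 control libraries, with red for higher and blue for lower. The fibrillar, type IV and type VI chains shown are all highest in replicate E, and Col27a1, a fibrillar chain lowest in replicate E, is not shown. Replicate E is also the highest library for all 6 tenocyte markers and for 4 of the 10 fibroblast markers.

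The wider collagen pathway was given by 73 genes for making, trimming, degrading and sensing collagen, of which 72 were tested, 43 were above 0, 29 below and 0 had an adjusted p under 0.05 by edgeR. The 18 enzymes and chaperones of chain modification and folding were split, with 8 above 0 and 10 below. Mia3, which loads bulky procollagen into transport carriers, was at 242, 229 and 258 CPM in control and 206, 141 and 110 CPM in miDrp1KO muscle, with all 3 miDrp1KO libraries below all control libraries (log2 fold change -0.67, SE 0.23, edgeR adjusted p = 0.391). Plod2, a lysyl hydroxylase of collagen cross-link sites, was at 6.91, 5.90 and 5.45 CPM in control and 7.39, 9.63 and 7.73 CPM in miDrp1KO muscle, again without overlap (log2 fold change 0.45, SE 0.20, edgeR adjusted p = 0.449). P4ha1, a subunit of prolyl hydroxylase, was at 43.0, 52.7 and 72.4 CPM in control and 38.3, 44.6 and 44.4 CPM in miDrp1KO muscle, with overlap.

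Among the genes of propeptide cleavage and cross-linking, 12 of 12 tested were above 0, with a median of 0.40 and 0 of them at an unadjusted p under 0.05. Replicates A and F held Lox at 15.2 and 17.5 CPM, below its control mean of 17.8 CPM. Adamts2 was at 12.4 and 13.5 CPM there, below its control mean of 14.2 CPM. Bmp1, Adamts14, Pcolce2, Loxl1, Loxl3 and Loxl4 were above their control means in both replicates, and Pcolce, Adamts3, Loxl2 and Tll1 were split. Pcolce2, an enhancer of propeptide cleavage, Loxl3 and Loxl4, which are lysyl oxidases, had log2 fold changes of 0.42 (SE 0.23), 0.41 (SE 0.23) and 0.48 (SE 0.25). Replicate E was the highest library for 9 of these 12 genes (75%, against 17.4% of all genes tested). It was also the highest for 60% of the basement membrane partners and for 44.4% of the chain modification and folding genes. For the receptors the share was 44.4%, for TGF-beta and CCN signalling 36.4% and for degradation and uptake 33.3%. Of 12 genes of degradation and uptake, 7 were above 0, and Mrc2, the receptor that takes up collagen fragments, was at 10.4, 10.7 and 11.1 CPM in control and 10.2, 20.1 and 16.6 CPM in miDrp1KO muscle (log2 fold change 0.54, SE 0.23, edgeR adjusted p = 0.432). In the same list the gelatinase Mmp2 had a log2 fold change of 0.38 (SE 0.21), and the stromelysin Mmp3 had -0.86 (SE 0.63).

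Of 9 collagen receptors, 6 were above 0, and Ddr2, a receptor kinase for fibrillar collagen, was at 63.2, 86.4 and 66.9 CPM in control and 101, 101 and 69.4 CPM in miDrp1KO muscle, with overlap. The integrin chains Itga11 and Itga10 had log2 fold changes of 0.33 (SE 0.23) and 0.34 (SE 0.32). Of 10 laminins and other partners of type IV collagen, 4 were above 0 and 6 below. Nid1, which bridges laminin and type IV collagen, had a log2 fold change of 0.37 (SE 0.22), the proteoglycan gene Hspg2 had 0.27 (SE 0.21) and the laminin chain Lama5 had -0.52 (SE 0.30).

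Among 11 genes of TGF-beta and CCN signalling, a main inducer of collagen transcription, 6 were above 0 and 5 below. Smad3, which carries the TGF-beta signal to collagen promoters, was at 118, 140 and 106 CPM in control and 74.8, 73.5 and 50.3 CPM in miDrp1KO muscle. All 3 miDrp1KO libraries were below all control libraries, with the smallest p of the 72 pathway genes (log2 fold change -0.87, SE 0.20), although the edgeR adjusted p was 0.362. Ltbp1, which stores latent TGF-beta in the matrix, was at 20.9, 20.2 and 21.4 CPM in control and 23.8, 33.2 and 23.9 CPM in miDrp1KO muscle, without overlap (log2 fold change 0.37, SE 0.17, edgeR adjusted p = 0.460). Ccn2, a matrix protein induced by TGF-beta, was at 19.6, 12.6 and 21.0 CPM in control and 19.9, 35.7 and 21.5 CPM in miDrp1KO muscle, where replicate E alone was well above the control libraries.

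The precision of these libraries limits what can be said of the abundant chains. The biological coefficient of variation was 0.252 over all genes, and for Col1a1 the interval of the log2 fold change spanned -0.81 to 2.86. For Col4a1, Col4a2, Col6a1 and Col6a3 the intervals lay between -0.70 and 0.52. Without replicate A, 13 of 44 collagens tested were higher and 1, Col19a1, was lower at an unadjusted p under 0.05 by edgeR. In that fit 0 had an adjusted p under 0.05, the lowest being 0.0672 for Col11a2. Of all 17845 genes in it, 3115 had an unadjusted p under 0.05 in either direction. Without replicate E, 0 were higher and 1, Col6a3, was lower at that threshold, in a fit where 1203 of 16753 genes had an unadjusted p under 0.05 in either direction.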

How the data were processed

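Total RNA from quadriceps muscle was depleted of ribosomal RNA, made into stranded libraries in pools, sequenced, aligned to GRCm38 and counted with Rsubread by the authors, who deposited the raw counts of each library in its own file, for 27179 genes (874 without a symbol). Which library was in which pool, and how reads on overlapping genes were counted, are not given in the sources used here. The submitters' processing notes also name FastQC and DESeq2 1.30.0.

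The test between genotypes used edgeR 4.0.16 under R 4.3.3 (TMM, filterByExpr, robust quasi-likelihood fit on genotype alone, Benjamini-Hochberg adjustment over 16483 genes, threshold 0.05), with 3 control and 3 miDrp1KO libraries, none left out. The pipeline was tested on simulated data. Single values were compared by two-sided exact permutation over libraries. Exon lengths came from GENCODE basic transcripts on GRCm38 and promoter windows from RefSeq. Alternatives were DESeq2 1.42.0, limma 3.58.1 voom, RLE and upper quartile scaling, no low-count filter, a minimum of 10 counts in every library, removal of 29 ribosomal RNA genes and Lars2, the ribosomal share as a covariate, and leaving out each library.

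The collagens and all gene lists were chosen with earlier results of these data known. Collagens with a mean of at least 5 CPM, or with an unadjusted p under 0.05 or no overlap between groups, were named, with the 3 genes of smallest p and a mean of at least 1 CPM per other list, and Dnm1l. Others named (Col8a2, Fmod, Tnmd, Kera, Acan, Matn3, Myh7, Mb, Csf1r, Mrc1, Adgre1, Cnmd, Ucma, Sox10, Prx, the other cleavage and cross-linking genes and the genes behind small counts) were chosen after their values were seen. A further marker list is not reported here as a list.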

Additional observations from a re-analysis of the deposited data

How the results depend on the processing

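The number of collagens called stayed 0 in all 14 alternatives, and over those alternatives the class medians ran from 0.16 to 0.60 for fibrillar, -0.16 to 0.21 for basement membrane, -0.15 to 0.21 for type VI and 0.14 to 0.58 for other collagens, the lowest without replicate E for the first 3 and without control replicate C for the last. Over all genes, 2 were called, against 121 by DESeq2 (of 2860 with an adjusted p), 8 without the filter on low counts and 1 with a covariate for ribosomal RNA, and leaving out each library gave 1 to 7 (7 without replicate A, 1 without replicate E and 1 without replicate F). The ribosomal covariate put 7 of 42 collagens above 0 at an unadjusted p under 0.05, in a fit where 1375 of 16483 genes had one in either direction. Upper quartile scaling moved the median log2 fold change of all genes from 0.02 to 0.11. Of 405 alternative log2 fold changes of the 29 named collagens, 379 kept their direction and 26, in 13 genes, turned it. None of these values passed the test, and the cause was not tested.

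Outside the fits that left out a library, the log2 fold change turned to 0.031 for Col4a1 and 0.0021 for Col4a2 with upper quartile scaling, to 0.040 and 0.023 with the ribosomal covariate, to -0.00067 with DESeq2 and -0.042 with voom for Col6a1, and to -0.041 with voom for Col22a1. Leaving out each library in turn gave a range of -0.16 to 0.43 for Col3a1, -0.019 to 0.54 for Col5a2, -0.060 to 1.38 for Col11a1, -0.29 to 0.11 for Col4a1, -0.33 to 0.047 for Col4a2, -0.033 to 0.46 for Col4a3, -0.018 to 0.30 for Col4a5, -0.28 to 0.18 for Col6a1, -0.080 to 0.50 for Col6a2, -0.40 to 0.21 for Col6a6, -0.065 to 0.58 for Col15a1, -0.57 to 0.35 for Col22a1 and -0.12 to 0.34 for Col18a1. For the log2 chain ratios the range was -0.084 to 0.40 for Col1a1 to Col1a2, -0.075 to 0.032 for Col4a2 to Col4a1 and -0.038 to 0.17 for Col5a1 to Col5a2. The lowest value came without replicate E for Col3a1, Col5a2, Col11a1, Col4a1, Col4a2, Col4a3, Col6a1, Col6a2, Col15a1, Col18a1 and Col22a1.

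No paired analysis was made, because the labels give each library its own replicate letter and name no pairs between the 2 groups.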
